A study of Mus musculus with 20 samples.

Results

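The entries described here are the mouse microRNAs (miRNAs) with high registry numbers, those whose first number is 1900 or above. They were taken from the rows shared by the male and the female count table, leaving out the entries 1906, 3070, 3071 and 3072 and every row with fewer than 200 raw counts summed over 20 libraries. That left 111 of the 1063 shared rows. A total of 265 shared rows had such a number at any count, of which 154 stayed under 200 counts and 18 were at 0 in every library. Conservation was not measured here. The total count chose the entries, so abundance is given as a description only. The 3 entries just inside the limit were miR-6418-3p with 202 counts, miR-5123 with 207 and miR-1969 with 210. Just outside were miR-3088-3p with 187, miR-5615-5p with 191 and miR-5627-3p with 191. Without their highest group of libraries 4 of the 111 would have missed the limit. These were miR-6418-3p, miR-5123, miR-1969 and miR-3073a-3p, the last with 221 counts. Their entry rested in part on the group where they were highest. At totals this near the limit an entry even between groups would have missed it too.

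A miRNA is cut from a hairpin in a longer transcript, first by Drosha in the nucleus and then by Dicer, which leaves a 5p and a 3p arm of which 1 is usually loaded into Argonaute. The seed, bases 2 to 8 of the mature strand, sets most of its pairing to messenger RNA. Registry numbers follow the order of discovery, so high numbers mostly belong to hairpins found by deep sequencing. Many of these are weakly expressed, rodent-specific or derived from other RNA. Among them are mirtrons, whose hairpin is a short intron released by the spliceosome and not by Drosha, hairpins within snoRNA genes, and hairpins read from the opposite strand of an older miRNA gene.

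Small RNA was sequenced in 2 mouse embryonic stem cell lines, the female PGK and the male E14. At day 0 the cells grew in 2i medium, in which a Mek and a Gsk3 inhibitor hold naive cells, and they were then turned into epiblast stem cells, the primed pluripotent state, on fibronectin in N2B27 medium with the growth factors Fgf2 and Activin A. Groups were day 0, day 4, day 10, days 19 to 23 and the late window of days 27 to 30, each with 2 libraries per line. The replicates, numbered 2 and 3, come from the differentiation experiments diff2 and diff3. Sex cannot be told apart from line, since each sex has a single line. In both lines the day 0 library of replicate 3 is labelled ESCs-EpiSCs by cell type, as differentiating cells are, although its day is given as 0, and it was used as day 0.

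Library totals lay between 7112394 and 18031067 counts, and 3 counts, the upper limit that a count of 0 allows, were 0.166 to 0.422 counts per 1000000 (CPM). CPM below are scaled by edgeR's TMM factors. Primed-cell miRNAs (the miR-302 arms and miR-367-3p, 5 of 5 found) summed to 161 to 557 CPM at day 0 and 10760 CPM or more in every late library, and 4 of 6 naive-cell miRNAs were found and summed to 177799 CPM or more at day 0 against at most 81730 CPM late. A fibroblast list (miR-199a, miR-214, miR-143 and miR-145a arms, 5 of 5 found) summed to 3254 to 8817 CPM at day 0, 352 to 2219 CPM at day 4 and 1229 to 3129 CPM late. The part of such cells in the changes below was not tested, and in bulk RNA fewer cells of a type and less RNA per cell cannot be told apart.

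RefSeq's table of miRNA sequences (build GRCm38.p6) held 82 of the 111 entries, with mature lengths of 19 to 26 bases and a median of 22. The others are named only. GENCODE M21 placed 17 more by name, and 12 were not placed. Sequences of 8 entries with steep changes are shown with the seed in capitals, since the seed is what would set their targets. They are not the 8 steepest: miR-1935 and miR-1965, for example, have no sequence here, and the miR-1941 arms are not shown. The first 4 lines rose during the conversion and the last 4 fell.
miR-3099-3p: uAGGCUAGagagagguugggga
miR-3105-3p: aCUGCUUAugagcuugcacucc
miR-3073a-3p: uUGAUGUCcacugugaccauag
miR-3102-5p: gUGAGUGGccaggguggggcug
miR-1981-5p: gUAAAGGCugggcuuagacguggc
miR-1981-3p: cAUCUAACccuggccuuugac
miR-1968-5p: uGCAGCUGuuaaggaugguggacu
miR-5114: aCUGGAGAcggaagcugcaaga
The seeds of these 8 all differ. Over the 82 sequences only 4 shared a seed with an entry numbered below 1900 or let-7. These were miR-1983 with miR-412-3p, miR-6240 with miR-330-3p, miR-3473d with miR-674-5p and miR-3102-5p with miR-702-5p. Within the group only miR-3064-5p and miR-3085-3p had a seed in common, CUGGCUG.

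By position 39 of the 99 placed entries lay in introns, 25 between genes, 13 in exons and 9 in or as genes typed as snoRNA or scaRNA, and 13 had a hairpin that began or ended within 3 bases of an intron end, called mirtron-like here. miR-1981 fills a whole intron of Marc2 (chr1:184822407-184822488, minus strand), the miR-3102 hairpin a whole intron of Arhgef17 (chr7:100882306-100882409, minus strand) and miR-1982 a whole intron of Oaz1. In the others the hairpin ends at the 3′ splice site only and a tail of intron precedes it. Mature sequences show this at their ends, where capitals mark the intron's GU start or AG end.
miR-1981-5p in Marc2: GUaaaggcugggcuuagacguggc
miR-3102-5p in Arhgef17: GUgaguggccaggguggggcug
miR-3077-3p in Sap18: cugacucccugcuucuccgcAG
miR-3076-3p in Tkt: cgcacucuggucuucccuugcAG
miR-3082-3p in Stub1: cacauggcacucaacucugcAG
miR-3103-3p in BC017158: uaaccucugauccuucccacAG
Of 7 mirtron-like 3p sequences 4 (57.1%) ended in AG, against 1 of 26 other 3p entries (3.85%), and 2 of 4 mirtron-like 5p sequences began with GU, against 2 of 22 (9.09%). The class was drawn from positions next to intron ends, so these letters follow largely from it.

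A set of 11 entries lies opposite another miRNA gene, and several of these had the counts of that gene over again. In the pairs below capitals mark the bases that are exact complements of each other, taken from RefSeq, with the late-numbered entry first.
miR-3074-2-3p: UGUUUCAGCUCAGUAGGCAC
miR-24-2-5p: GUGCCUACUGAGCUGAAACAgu
miR-3544-5p: agAAAGGCAUCAUAUAGGAGCUG
miR-337-3p: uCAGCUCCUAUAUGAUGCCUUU
miR-3065-5p: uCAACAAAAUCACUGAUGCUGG
miR-338-3p: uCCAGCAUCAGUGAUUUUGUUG
miR-3544-3p: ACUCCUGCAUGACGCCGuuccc
miR-337-5p: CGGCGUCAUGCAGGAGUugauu
miR-3074-2-3p lies on the minus strand at chr8:84208839-84208858 and miR-24-2-5p on the plus strand at chr8:84208839-84208860, with 20 complementary bases. miR-3544-5p is at chr12:109585851-109585873 (minus) opposite miR-337-3p, with 21, and miR-3065-5p at chr11:120014780-120014801 (plus) opposite miR-338-3p, with 21. miR-3544-3p shares 17 with miR-337-5p.

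Over 20 libraries miR-3074-2-3p had 45149 counts and miR-24-2-5p, an older and well conserved miRNA, 45448. The ratio stayed between 0.991 and 0.999 in every library, and the largest difference was 31 counts. miR-3065-5p had 1369 counts and miR-338-3p 1372, with at most 2 counts between them in any library. In the same way miR-3544-5p had 8300 counts and miR-337-3p 8032 (ratio 1.01 to 1.05), miR-3107-5p 20495 and miR-486-5p 20039 (1 to 1.06), and miR-3107-3p 12595 and miR-486-3p 13189 (0.928 to 0.991). So these 5 entries repeat the count of their partner library by library. The miR-3107 entries matched the same arm of miR-486 (5p with 5p, 3p with 3p), while the others matched the opposite arm. Against the opposite arm of miR-486 the ratios were 1.36 to 1.72 for miR-3107-5p and 0.566 to 0.732 for miR-3107-3p. The miR-3107 entries have no sequence here, so their overlap with miR-486 in bases was not checked. A further 2 pairs had near-equal totals but not equal libraries. miR-3065-3p and miR-338-5p had 379 counts each, with a ratio of 0.806 to 1.19, and miR-3074-1-3p had 1773 counts against 1734 for miR-24-1-5p, with a ratio of 0.688 to 1.31. The match was looser for miR-3074-5p and miR-24-3p, at 0.638 to 0.796, and absent for miR-3544-3p, which had 1262 counts against 7246 for miR-337-5p (0.122 to 0.282). It was also absent for miR-3073a-3p, with 221 counts against 13 for miR-3073b-5p, although 20 bases overlap on opposite strands. miR-5615-3p, with an overlap of 20 bases too, had 321 counts against 191 for miR-5615-5p. Whether counting used strand is not given in the sources used here. Without strand, reads of an entry and of a partner overlapping it on the other strand cannot be told apart. How much of these counts belongs to the late-numbered strand is uncertain. Whether the equal counts of the miR-3107 and miR-486 arms arose in this way was not tested. The pairs were chosen after their values had been seen.

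**Figure D1:**
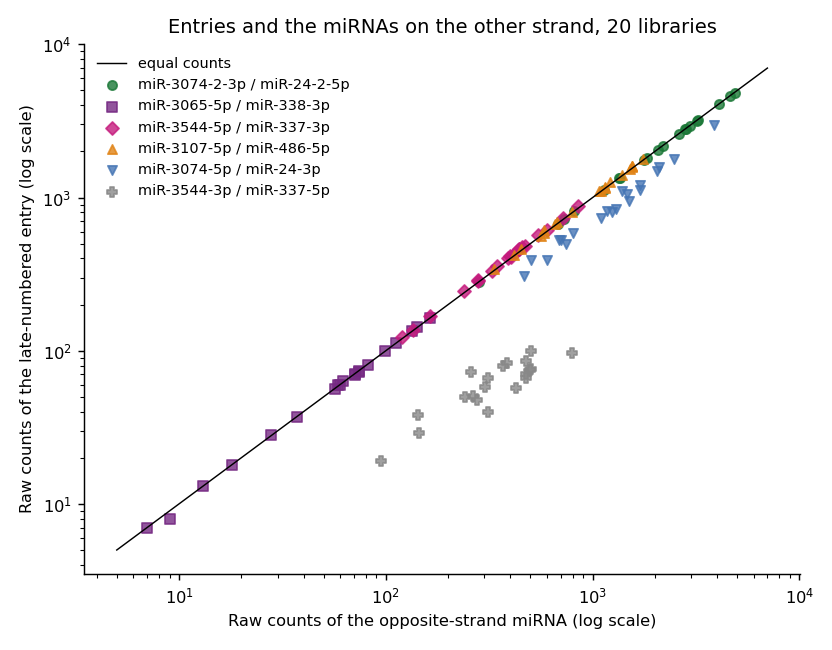
Raw counts of 6 late-numbered entries (y axis) against the miRNA on the other strand (x axis), both log scales, 1 point per library and 20 per pair, with a line of equal counts. The pairs of miR-3074-2-3p, miR-3065-5p, miR-3544-5p and miR-3107-5p sit on the line, miR-3074-5p lies below it and miR-3544-3p far below.

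The changes of such pairs were accordingly alike. By the late window miR-3065-5p rose by 3.08 ± 0.61 in the female line (log2 ± SE, adjusted p = 0.000857, edgeR) and miR-338-3p rose with it (adjusted p = 0.00103, edgeR). Male cells had a rise of 1.87 ± 0.55 in both, a call that for miR-3065-5p was lost without male day 0 replicate 3 or late replicate 3 (highest adjusted p = 0.147, edgeR). miR-3065-3p, with 0 counts in female day 0 cells and 38 late, was at least 12.8-fold higher. miR-3074-2-3p was at 109 and 191 CPM in female day 0 and 366 and 441 CPM in late cells, and at 66.2 and 97.4 against 237 and 210 CPM in male cells. It rose by 1.43 ± 0.47 and 1.45 ± 0.47 (adjusted p = 0.0225 and 0.0235, edgeR), as did miR-24-2-5p, by 1.43 and 1.46. The female call was lost without day 0 replicate 2 or either late library and the male call in 10 of 27 alternatives (highest adjusted p = 0.184 and 0.169, edgeR). miR-3107-5p passed in neither line (adjusted p = 0.0651 and 0.931, edgeR).

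Together the 111 entries held 1.12% of all counts in the shared rows. Their counts were very uneven. The 4 most abundant, miR-5099 (510758 counts), miR-5115 (489366), miR-5109 (273879) and miR-2137 (185489), made up 58.8% of the group's counts, and the top 10 made up 83.8%. The other 6 of the top 10 were miR-1965 (170979), miR-3096b-5p (117328), miR-1983 (113939), miR-3096a-5p (97175), miR-6539 (76112) and miR-3074-2-3p (45149). At the other end 51 entries had fewer than 1000 counts in all. A mean of 100 CPM or more was reached by 13 entries and 10 CPM or more by 50, while 3 stayed under 1 CPM.

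The highest shares of a library taken by the group came with those leading 4. From day 0 to day 4 the group's mean share went from 1.31% ± 0.224 to 0.869% ± 0.0418 in female cells (SD, n = 2). In male cells it was 1.02% ± 0.355 and 0.982% ± 0.267 (SD, n = 2), with overlapping replicates. The mean share of the leading 4 was 0.373% ± 0.1 and then 0.487% ± 0.2 in female cells (SD, n = 2). For male cells it was 0.408% ± 0.282 and then 0.592% ± 0.0975 (SD, n = 2). The replicates of these days overlapped in both lines, and in female replicate 3 the share of the leading 4 went down, from 0.4439% to 0.3455%. In female late cells the group's share was 2.15% ± 1.13 (SD, n = 2) and at female day 0 1.31% ± 0.224 (SD, n = 2), and the late replicates differed by more than the groups did. The leading 4 held 2.481% of female late replicate 2 and 0.8895% of replicate 3. They held 1.405% of male day 10 replicate 3 and 0.3954% of replicate 2. The other 107 entries held their largest share at day 0 in both lines. It was 0.937% ± 0.124 (SD, n = 2) at female day 0 and 0.381% ± 0.158 (SD, n = 2) by day 4, and it was 0.462% ± 0.00525 (SD, n = 2) late. For male cells it went from 0.611% ± 0.0729 (SD, n = 2) at day 0 through 0.39% ± 0.169 (SD, n = 2) at day 4 to 0.448% ± 0.0158 (SD, n = 2) late. Shares were not tested, since the members were chosen on their counts.

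**Figure D2:**
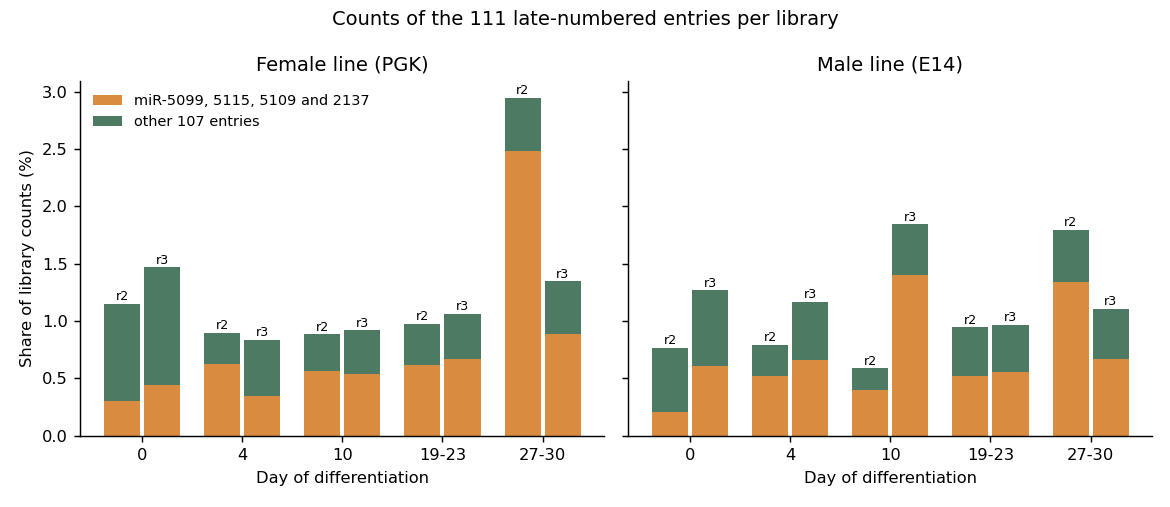
Share of each library's counts (percent, linear axis from 0) held by the 111 entries, with 1 bar per library, r2 and r3 for replicates 2 and 3, in the female line (left) and male line (right) by day. Orange is the sum of miR-5099, miR-5115, miR-5109 and miR-2137 and green the other 107, and the tallest bar, female late replicate 2, owes 2.481% to the orange entries.

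The spread between replicates was large for the most abundant entries. miR-5115 stood at 456 and 674 CPM in female day 0 cells, 5756 and 801 at day 4 and 8704 and 2428 in the late window. The replicates of female day 4 thus differed 7.18-fold. miR-2137, in an intron of Zfp185 (hairpin at chrX:72992079-72992144), was at 176 and 138 CPM at female day 0 and 6404 and 1379 late, and differed 7.3-fold between the male day 0 replicates. miR-5109 ranged from 217 CPM in male day 10 replicate 2 to 6816 CPM in female late replicate 2, and its male day 10 replicates differed 5.31-fold. miR-5099, between genes at chr12:36816205-36816278, was steadier, with the widest replicate gap, 2.92-fold, at male day 10. For the 60 entries with 1000 or more counts the median over entries of the typical replicate ratio was 1.45, and 16.7% had a typical ratio above 2. For 528 entries numbered below 1900 or let-7 at the same depth these values were 1.37 and 10.6%, a difference that was not tested. In female late cells miR-2137 rose by 4.63 ± 1.05 (log2 ± SE, adjusted p = 0.0023, edgeR), with both late libraries above both day 0 libraries. miR-5115 rose by 3.30 ± 0.95 (adjusted p = 0.0111, edgeR), a call that was lost without female late replicate 2 or without either female day 0 library (highest adjusted p = 0.124, edgeR). The male changes of miR-2137 (1.32 ± 0.91, adjusted p = 0.267, edgeR) and miR-5115 (1.43 ± 0.89, adjusted p = 0.213, edgeR) did not pass. miR-5099 and miR-1983 passed in neither line. miR-6539, in an intron of Dock5, fell by 1.51 ± 0.50 in female cells (adjusted p = 0.0226, edgeR), a call lost with total-count scaling, without female day 0 replicate 2 or without either female late library, and did not pass in male cells (-1.23 ± 0.50, adjusted p = 0.0591, edgeR).

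By the late window 26 entries had risen and 19 had fallen in the female line, against 24.1% higher and 19.4% lower among all 813 miRNAs tested (edgeR's quasi-likelihood test, adjusted p under 0.05). That is 23.4% and 17.1% of the 111. In the male line 19 rose and 19 fell (17.1% each), where 19.6% and 21.2% of all tested were called. The median log2 change of the entries was 0.03 (female) and 0.11 (male), beside 0.01 and 0.05 over all tested. Both lines called 15 entries higher and 15 lower (13.5% each, with 13% and 14.1% of all tested), and no entry was called in opposite directions. The shares of entries called were thus near or below those of all miRNAs tested. Scaling by total counts alone raised the median of all tested to 0.42 (female) and 0.71 (male) and turned the split of called entries to 32 higher and 11 lower, and 28 and 12. Leaving out 1 library lowered the female count from 45 to 28 (late replicate 2) or 27 (late replicate 3), and the male count from 38 to 25 (day 0 replicate 2), 19 (late replicate 2) or 21 (late replicate 3).

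miR-3099-3p was well counted and rose in both lines. It comes from an intron of the imprinted gene Usp29 (hairpin at chr7:6803587-6803670), and was at 2.90 and 1.20 CPM in female day 0 cells and 107 and 99.9 CPM late, and at 3.38 and 5.98 CPM in male day 0 cells and 47.9 and 63.2 CPM late. The groups were far apart in both lines. The rise was 5.64 ± 0.69 in the female (log2 ± SE, adjusted p = 1.75e-05, edgeR) and 3.56 ± 0.62 in the male line (adjusted p = 0.000494, edgeR). It built up over days: at day 4 the female value was 21.96 and 25.1 CPM, and the male one, 10.6 and 6.78 CPM, did not pass (adjusted p = 0.227, edgeR).

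miR-6540-5p lies in an intron of Gap43, which encodes a growth-cone protein. It went from 1.93 and 0.544 CPM to 17.3 and 22.96 CPM in female cells, and from 1.64 and 1.66 to 10.3 and 7.53 CPM in male cells. It rose by 3.99 ± 0.70 (adjusted p = 0.000322, edgeR) and 2.42 ± 0.65 (adjusted p = 0.00912, edgeR). The male call was lost without either male day 0 library (highest adjusted p = 0.0661, edgeR). It peaked at day 4 in both lines, with 24.4 and 40.5 CPM in female and 15.05 and 15.2 CPM in male cells, above every other library of the same line. A neuron list (miR-124-3p and miR-9-5p) also stood higher at day 4, at 630 to 1735 CPM against 163 to 311 CPM at day 0 and 285 to 1115 CPM late. A muscle list (miR-1a-3p, miR-133a-3p and miR-206-3p, 3 of 3 found) went from 0.548 to 7.29 CPM at day 0 to 20.7 to 72 CPM at day 4 and 14.2 to 20.9 CPM late. The part of such cells in the rises at day 4 and late was not tested.

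miR-3105-3p, in an intron of Shank2, and miR-3073a-3p, in an intron of Aspg and opposite the gene Mir3073b, were near the detection limit at day 0. miR-3105-3p had 2 counts over both female day 0 libraries and 74 late, a ratio of 36.7 (exact 95% interval 9.82 to 309, counting error only). Male cells had 3 and 141 counts, a ratio of 45.2 (15.1 to 222), and edgeR called both rises (adjusted p = 0.000223 and 0.000125). miR-3073a-3p had 0 counts in female day 0 cells and 29 late, at least 9.38-fold higher against 3 counts over the group, and 1 and 38 in male cells. Its late level was still only 1.13 to 1.79 CPM in the 4 late libraries. All calls of both entries held in every alternative that tested them. For miR-3073a-3p these alternatives did not test how the entry was chosen. Its highest group was male late, with the 38 counts above. Without that group its total of 221 counts would have fallen under the limit for entry. The male late rise thus rests on a group that helped to admit the entry.

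The intron of Arhgef17 gave several mature entries from 1 hairpin. miR-3102-3p was the main one, at 6.29 and 12.1 CPM in female day 0 and 33.7 and 46.5 CPM in late cells, and 15.5 and 32.1 against 74.7 and 55.3 CPM in male cells. It rose by 2.13 ± 0.47 (adjusted p = 0.00193, edgeR) and 1.45 ± 0.45 (adjusted p = 0.0207, edgeR). Its male call was lost without any 1 of 5 libraries, among them male day 0 replicate 2 and late replicate 2 (highest adjusted p = 0.187, edgeR). miR-3102-5p rose from 2 to 44 counts in female cells (ratio 21.9, exact 95% interval 5.7 to 186) and by 2.99 ± 0.82 in male cells (adjusted p = 0.0103, edgeR), a male call lost without male day 0 replicate 2 or late replicate 2 (highest adjusted p = 0.0714, edgeR). miR-3102-3p.2-3p rose by 2.75 ± 0.85 and 2.22 ± 0.80 (adjusted p = 0.0162 and 0.0365, edgeR), and its male call was lost in 11 of 26 alternatives. Its female call was lost without day 0 replicate 2 or late replicate 3 (highest adjusted p = 0.148, edgeR). miR-3102-5p.2-5p was at 0.290 and 3.05 CPM in female day 0 and 17.7 and 19.4 CPM in late cells, and at 2.01 and 5.98 against 22.6 and 15.7 CPM in male cells. It rose by 3.49 ± 0.98 in the female line (adjusted p = 0.00995, edgeR), a call lost without day 0 replicate 2 (adjusted p = 0.0845, edgeR), and did not pass in the male line (2.24 ± 0.91, adjusted p = 0.061, edgeR). So all 4 entries of this hairpin were called higher in the female line and 3 of the 4 in the male line, while both arms of miR-1981 were called lower in both lines.

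**Figure D3:**
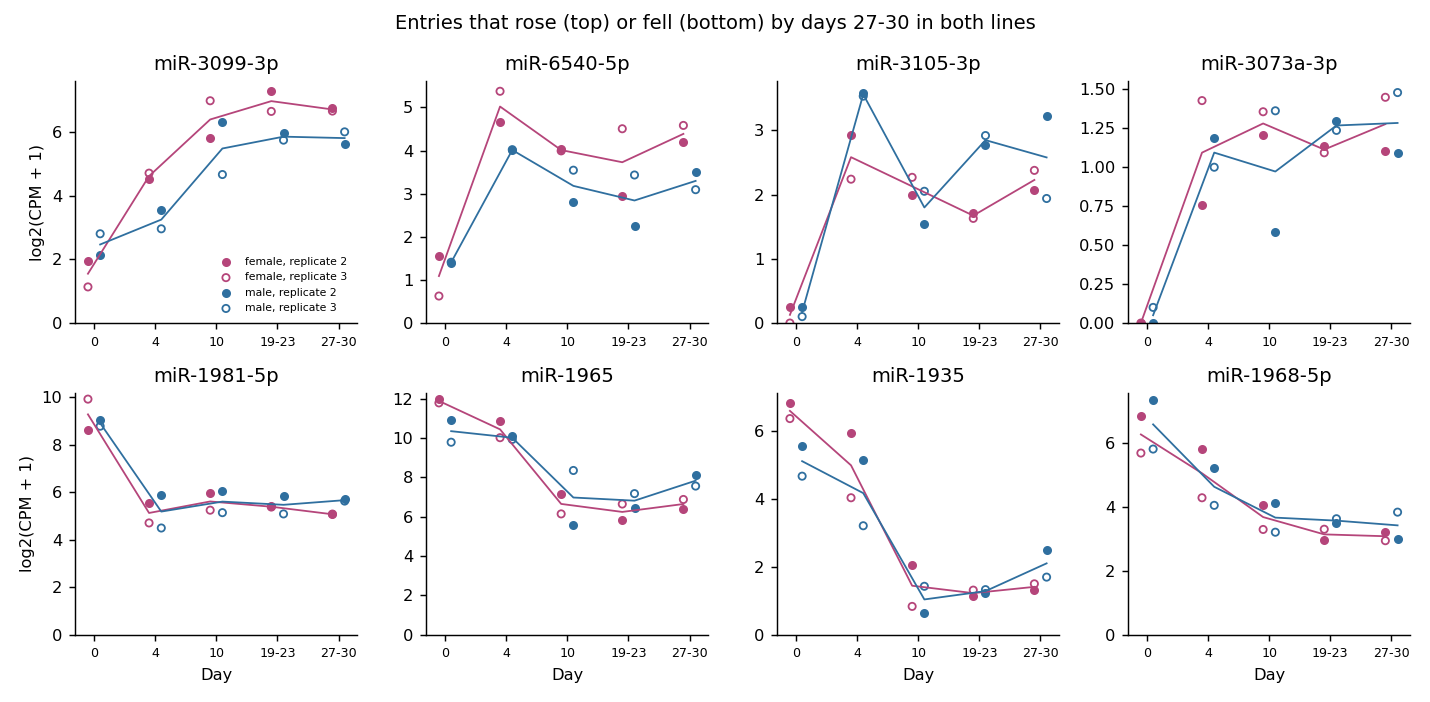
Level of 4 entries that rose (top) and 4 that fell (bottom) by day, as log2(CPM + 1), with a point per library (filled for replicate 2, open for replicate 3), female line in pink, male line in blue, lines through group means and days spaced evenly. miR-3099-3p climbs until days 19 to 23, miR-6540-5p peaks at day 4 in both lines, and miR-1981-5p reaches its low level by day 4 while miR-1965 and miR-1935 do so by day 10.

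In the female line the steepest late falls called were those of miR-1935, miR-1965 and miR-1940, which were not placed, and of miR-1981. In the male line miR-5114 (-4.37) and miR-3078-5p (-4.31 ± 1.05, adjusted p = 0.00537, edgeR) fell furthest, followed by miR-1940 and the miR-3096 3p entries. miR-3078-5p was at 0.798 ± 0.559 CPM (SD, n = 2) in male late cells, and its call was lost without male day 0 replicate 2 or late replicate 2 (highest adjusted p = 0.0542, edgeR). miR-1981-5p was at 395 and 962 CPM in female day 0 cells and 522 and 436 CPM in male ones, and at 32.3 and 32.7 CPM (female) and 50.99 and 48.2 CPM (male) late. It fell by 4.38 and 3.27 on the log2 scale (SE 0.61 and 0.58, adjusted p = 4.97e-05 and 0.000634, edgeR). Its 3p arm, at 104 and 294 CPM in female day 0 cells and 16.7 and 18.9 CPM late, fell by 3.48 (adjusted p = 0.000147, edgeR), and by 3.41 in the male line (adjusted p = 0.00028, edgeR). The 5p arm was at 21.5 to 57.5 CPM in the 4 day 4 libraries already, and the 3p arm at 11.2 to 16.2 CPM. These calls held in all 27 alternatives.

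miR-1965 was the most abundant entry of the female day 0 cells, at 4051 and 3525 CPM, and was at 84.1 and 116 CPM late. Male libraries were at 1921 and 881 CPM, and 274 and 187 CPM late. It fell by 5.24 ± 0.80 (adjusted p = 9.54e-05, edgeR) and by 2.60 ± 0.71 (adjusted p = 0.0097, edgeR). The male call was lost without male day 0 replicate 2 or late replicate 3 (highest adjusted p = 0.0782, edgeR). At day 4 it had passed in neither line. miR-1935 took the same course, from 112 and 81.1 CPM to 1.496 and 1.82 CPM in female cells and from 45.8 and 24.4 CPM to 4.67 and 2.24 CPM in male cells, falls of 5.85 and 3.34 (adjusted p = 0.000147 and 0.00547, edgeR). The male call was lost without late replicate 3 (adjusted p = 0.0601, edgeR). miR-1940 fell by 4.30 and 3.87 (adjusted p = 0.00018 and 0.000486, edgeR), from 5.41 to 7.54 CPM over the 4 day 0 libraries to 0.322 to 0.447 CPM over the 4 late ones. miR-1968-5p, in an intron of Grtp1, was at 50.02 to 161 CPM over the 4 day 0 and 6.65 to 13.2 CPM over the 4 late libraries, and fell by 3.45 and 3.41 (adjusted p = 0.00125 and 0.00177, edgeR).

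The miR-3096 entries also fell. miR-3096b-5p was at 707 and 1802 CPM in female day 0 cells and 295 and 323 CPM late, and at 570 and 1601 CPM in male day 0 and 221 and 205 CPM in late cells. All late libraries lay below all day 0 libraries, but replicate 3 was the higher at day 0 and day 4 in both lines, by up to 3.78-fold. The changes were -2.02 ± 0.73 and -2.35 ± 0.74 (adjusted p = 0.0355 and 0.0207, edgeR). Both calls were lost with total-count scaling, without day 0 replicate 3 or without either late library of the line (highest adjusted p = 0.246 and 0.162, edgeR). miR-3096a-5p fell by 2.17 and 2.62 (adjusted p = 0.0466 and 0.0235, edgeR), and its female call was lost in 15 of 27 alternatives (highest adjusted p = 0.269, edgeR). Its male call was lost with total-count scaling, without male day 0 replicate 3 or without either male late library (highest adjusted p = 0.206, edgeR). The 3p entries fell by 2.59 (miR-3096b-3p) and 2.49 (miR-3096a-3p) in the female line, calls that were lost without day 0 replicate 3 or either late library (for miR-3096a-3p also with total-count scaling), and by 3.87 and 3.84 in the male line, calls that were not lost. The a and b entries carry near-identical names and moved as 1: the ratio of a to b counts lay between 0.956 and 1.36 for the 3p and 0.566 and 0.954 for the 5p entries, so how reads were divided between them is uncertain. GENCODE types its gene Mir3096 (chr5:23710991-23711061, minus strand) as a snoRNA, which was not matched to these entries by name.

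Among the 9 entries in or as snoRNA or scaRNA genes none rose and 4 (44.4%) fell in each line by the late window, where 19.4% (female) and 21.2% (male) of all tested were lower. The 9 share hairpins: the 4 female falls were the 2 arms each of miR-3068 and miR-3069, and the male ones both arms of miR-3068, miR-3069-3p and miR-3084-3p. miR-3068-3p, within Alkbh1, fell from 239 and 247 CPM to 71.0 and 71.1 CPM in female cells, and from 117 and 242 CPM to 47.8 and 44.8 CPM in male cells, by 1.77 ± 0.37 and 1.96 ± 0.37 (adjusted p = 0.00125 and 0.000897, edgeR). miR-3069-3p, inside Scarna13 in the host gene Snhg10, fell by 1.67 and 2.62 (adjusted p = 0.0331 and 0.00377, edgeR), and its female call was lost with total-count scaling or without any 1 of its 4 libraries (highest adjusted p = 0.163, edgeR). The female call of miR-3069-5p was lost in 3 of 26 alternatives, and the male calls of miR-3068-5p and miR-3084-3p in 4 of 26 each. miR-5121, inside Snord33 in the ribosomal protein gene Rpl13a, did not pass in either line (-0.64 ± 0.57 and -1.01 ± 0.57, adjusted p = 0.374 and 0.172, edgeR). Of 39 intronic entries 13 (33.3%) rose and 2 (5.13%) fell in female cells, beside 24.1% and 19.4% of all tested. In male cells 8 (20.5%) rose, near the 19.6% of all tested, and 1 (2.56%) fell, beside 21.2%. Neither lean was particular to its class. Of the 25 entries between genes 7 (28%) rose and 2 (8%) fell in each line. Among the 12 entries not placed, miR-1965, miR-1935, miR-1940, miR-5105 and the miR-3096 entries were called lower in both lines. These counts by class are a description and the difference between classes was not tested.

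**Figure D4:**
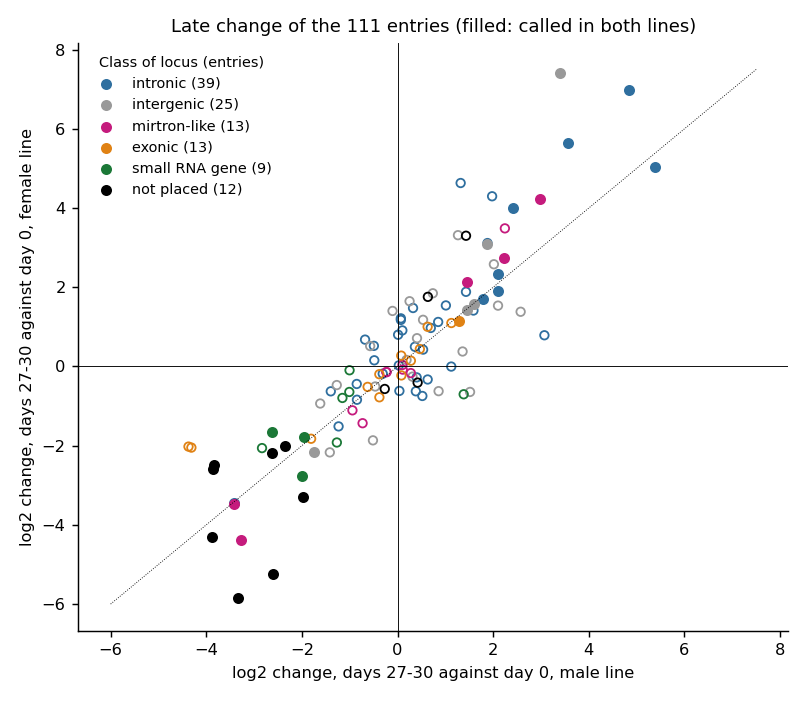
Late log2 change against day 0 of each of the 111 entries, male line on the x axis and female line on the y axis, coloured by class of locus, filled where edgeR called both lines and with a dotted line of equal change. The 15 entries called higher in both lines are in the upper right, 5 of the 15 called lower are mirtron-like or in small RNA genes, and none is filled in the other quadrants.

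At day 4 the female line had 18 entries higher and 13 lower, with 24.5% and 14.6% of all tested called, and the male line 15 and 15, with 25.1% and 18.3% called. So 16.2% of the entries were higher in female and 13.5% in male cells, less than among all tested, a difference that was not tested. Both lines called 11 higher and 9 lower (9.91% and 8.11%), beside 17.7% and 9.23% of all tested. The direction of the split followed the scaling: with RLE factors 14 were higher and 17 lower (female) and 12 and 20 (male), and with total counts 10 and 18 (female). The female count went from 31 to 19 without day 0 replicate 2 or day 4 replicate 3, and the male count from 30 to 19 without day 4 replicate 2.

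Some entries that were low at day 4 had higher values again later. miR-5114, which overlaps an exon of the desaturase gene Scd2 (hairpin at chr19:44303171-44303231), stood at 84.8 and 17.5 CPM in female day 0 cells and 2.20 and 0.789 CPM at day 4. At days 19 to 23 it was at 56.6 and 10.6 CPM. The male line had 80.03 and 21.99 CPM, then 0.590 and 0.667 CPM, and only 3.24 and 4.15 CPM at days 19 to 23. Its day 4 changes were -5.09 ± 1.12 and -6.32 ± 1.21 (log2 ± SE, adjusted p = 0.00236 and 0.00103, edgeR), and its late change passed in the male line only (-4.37 ± 1.06, adjusted p = 0.00534, against -2.02 ± 0.95, adjusted p = 0.0975, edgeR). The male late call was lost without late replicate 3 (adjusted p = 0.0503, edgeR). The difference between these late changes did not pass.

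Both arms of miR-1941, in an intron of Gm35853, nearly vanished at day 4. The 3p arm had 23 counts in female day 0 cells and 0 at day 4, at least 6.81-fold lower against 3 counts over the group, and 60 and 2 counts in male cells, a ratio of 23.2 (exact 95% interval 6.14 to 196). The 5p arm had 42 and 3 counts in the female and 133 and 3 in the male libraries, which are ratios of 12.6 (4.01 to 63.3) and 34.2 (11.5 to 168). edgeR called all 4 falls (adjusted p = 0.00808 and 0.00767 for 3p and 0.0464 and 0.00838 for 5p). The female 5p call was lost without any 1 of its 4 libraries, and both male calls without day 0 replicate 3 or day 4 replicate 2 (highest adjusted p = 0.178, 0.0717 and 0.0619, edgeR). In the late window neither arm passed in either line.

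The rises at day 4 were led by miR-3105-3p, with 90 counts in female and 207 in male cells against 2 and 3 at day 0. These are ratios of 50.2 (exact 95% interval 13.5 to 421) and 89.4 (30.2 to 437), both called (adjusted p = 0.000148 and 3.81e-05, edgeR). miR-6540-5p rose by 4.68 ± 0.71 and 3.19 ± 0.66 (adjusted p = 0.000148 and 0.00179, edgeR). miR-3073a-3p, whose entry rested in part on its highest group, male late, rose at least 7.76-fold in female cells, from 0 to 21 counts. In male cells it went from 1 to 22 counts. miR-3065-3p passed narrowly (adjusted p = 0.0486 and 0.0497, edgeR) and was lost in 19 and 23 of 26 alternatives.

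Averaged over the 5 stages 10 entries were higher and 2 lower in the female than in the male line, where 13.9% and 4.55% of all tested were called. That is 9.01% and 1.8% of the entries. This comparison leaned on the scaling, since the median over all tested was 0.12 with TMM factors and -0.02 and -0.01 with RLE factors and total counts, and the split was then 4 and 4, and 3 and 4. The count of 12 fell to 5 to 7 when any 1 of 14 libraries was left out, among them both female late and both male days 19 to 23 libraries. miR-5114 was higher in the female line by 2.05 ± 0.47 (adjusted p = 0.0101, edgeR), although at day 0 both lines lay between 17.5 and 84.8 CPM. miR-6538, in an intron of Rnf144a, was at 48.5 ± 25.2 CPM (SD, n = 2) in female and 5.999 ± 2.36 CPM (SD, n = 2) in male day 4 cells, and was higher on average by 1.49 ± 0.28 (adjusted p = 0.00273, edgeR). Both calls held in all 26 alternatives. miR-3095-3p (1.46 ± 0.42, adjusted p = 0.0264), miR-5109 (1.01 ± 0.34, adjusted p = 0.0465) and miR-3074-2-3p (0.85 ± 0.21, adjusted p = 0.0135, all edgeR) were lost in 14 of 25, 23 of 26 and 14 of 26 alternatives. miR-3065-5p was lower by 0.78 on the log2 scale and miR-3102-3p by 0.72 (-0.78 ± 0.24 and -0.72 ± 0.20, adjusted p = 0.0374 and 0.0243, edgeR). The call for miR-3065-5p was lost without female days 19 to 23 replicate 3 or male late replicate 3, and that for miR-3102-3p without male late replicate 2.

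No entry passed for a late change that differed between the lines. For this difference 0% of all tested were called higher in the female line and 0.369% lower. Of the 111 entries 7 had an unadjusted p under 0.05 (6.31%, beside 13.9% of all tested), the smallest adjusted p was 0.211 (edgeR), and DESeq2 called 0.

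Arm use could be followed in 19 hairpins with both arms among the entries. The 5p arm took 93.7% of miR-3096b and 92.2% of miR-3096a counts, and between 88 and 98% in single libraries. In miR-1981 the 5p arm took 74.9%, from 59.4% to 84% over the 20 libraries. miR-3068 was the reverse, with 3.54% on the 5p arm and at most 8.07% in any library, and miR-3107 was the evenest of the 6 most abundant, at 57.8 to 64.4%. Among these 6 the widest range was that of miR-3074-5p against miR-3074-2-3p, 13.5 to 68.8% on the 5p side with a median of 28.4%. This is not the share of 1 hairpin, since miR-3074-5p has 2 loci, Mir3074-1 and Mir3074-2. Over all 19 the range of miR-3079 was about as wide, 26.3 to 81.8%, on 386 and 317 counts. miR-3074-2-3p, counted almost exactly as miR-24-2-5p was, rose late in both lines. miR-3074-5p did not pass in the female line (-0.47, adjusted p = 0.442, edgeR) and fell by 1.27 in the male line (adjusted p = 0.0464, edgeR), a call lost in 12 of 27 alternatives.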

How the data were processed

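Small RNA counts were analysed from the deposited tables, without realignment. The authors deposited, per line, raw counts per miRNA and library, normalized signal values (each library's counts over 1 constant, as the ratio of both tables shows) and log2 values from a variance-stabilized table, per the file headers. The last 2 served for checks only. CASAVA 1.8.2, DESeq2 and the builds mm10 and GRCm38 stand in the submitters' processing notes. Not given in the sources used here were the aligner, annotation, strand and multi-mapping rules.

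Counts of the 1063 shared rows in 20 libraries, in 10 groups of 2, were tested with edgeR 4.0.16 (R 4.3.3): TMM factors (0.551 to 1.43), filterByExpr by group (813 miRNAs kept, all 111 entries among them), a common dispersion of 0.171, quasi-likelihood F tests with 10 residual degrees of freedom, and Benjamini-Hochberg adjustment over the 813 within each contrast at 0.05. SEs are the absolute log2 change divided by the square root of F. The labels name 2 differentiation experiments per line, so p-values measure the spread between these. Replicates 2 and 3 were also taken on unlike days in some groups. These were days 23 and 21 (female) and 21 and 19 (male) in the window of days 19 to 23, and days 27 and 30 in male late. Both female late libraries were from day 29. There the spread holds a difference in day, and comparisons of the lines set unlike days side by side. Exact intervals are from the binomial split of counts and, like floors of 3 counts, cover counting error only. The scripts were tested on simulated data.

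The entries, the lists and the rule for naming were chosen with earlier results of these data known. The rule took the 10 most abundant entries, the 8 steepest each way late and 4 each way at day 4 (called in both lines, libraries not overlapping), up to 6 each way between the lines (same direction at all 5 stages), and the 6 most abundant hairpins with both arms. Other named entries (antisense pairs, small RNA genes, mirtrons, the miR-3102 entries late and miR-3078-5p) were chosen after their values were seen. Libraries of the same stage and experiment correlated between the lines at 0.13 to 0.554 in their deviations from group means, all 5 above 0.1, so the replicate numbers, which are experiment names in the labels, pair them. Alternatives were other scaling (RLE, total counts), no filter or 10 CPM, a replicate block, DESeq2 1.42.0, each line alone and leaving out each library, where the lone library left in a group is taken to vary as the others do. Positions came from GENCODE M21 and RefSeq (GRCm38.p6), and sequences from RefSeq.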

Additional observations from a re-analysis of the deposited data

How the results depend on the processing

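Counts of called entries were 45 and 38 late and 31 and 30 at day 4 (female and male line), 12 between the lines and 0 for the difference of late changes. With the replicate block they were 49, 40, 33, 32, 15 and 0, and the block changed no call count by over 1.5 times. DESeq2 gave 47, 41, 38, 35, 12 and 0. A mean of at least 10 CPM left 50 entries to test and called 27, 20 and 14 for female late, male late and male day 4, and 7 between the lines, where total-count scaling and no filter also gave 7. Leaving out each library in turn gave 27 to 45 and 19 to 43 late, 19 to 41 and 19 to 32 at day 4, 5 to 13 between the lines and 0 to 0 for the difference. Without the 11 entries opposite another miRNA gene, an alternative added after seeing the data, 40, 33, 25, 25, 10 and 0 were called. The cause of these shifts was not tested, apart from the fewer entries that a filter or an omission leaves. Of 2206 refitted values of named entries 1989 kept direction and side of the threshold, 199 lost and 18 gained the call, and 0 reversed a called direction. Matches of mature sequences to a genome were not run, since no genome sequence was used here. In the transcripts of GENCODE M21 23 of the 82 sequences were found in another transcript than their own hairpin. None was found in more than 10 genes, also with the first 18 bases alone. Copies outside these transcripts could not be seen by this search. Entries without a sequence, miR-5099, miR-5115, miR-5109 and miR-1965 among them, were not searched. Most of the 23 matched only a gene that overlaps their own hairpin, such as Scd2 for miR-5114. miR-3098-5p was also found in Gm26219, and miR-3084-3p, which has 2 loci, in Snora19. Depth limits the low entries: 51 of 111 had fewer than 1000 counts over 20 libraries.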

Other observations

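The following entries were named by no rule and are given as values. miR-6240, between genes on chromosome 5, was at 700 and 371 CPM in female day 0 cells and 142.4 and 117 CPM at day 4, and at 102 and 106 CPM in male day 0 cells and 222 and 373 CPM late. It fell in female cells at day 4 by 2.04 ± 0.59 (log2 ± SE, adjusted p = 0.0127, edgeR) and rose in male cells late by 1.52 ± 0.58 (adjusted p = 0.0472, edgeR). These calls were lost in 2 and 18 of 27 alternatives. miR-5128, in an intron of Strbp, and miR-6399, in an intron of Eif4g3, rose in both lines at day 4 and late, and each call of miR-5128 was lost in 2 or 3 of 27 alternatives, the female day 4 call of miR-6399 in 3. miR-6399 went from 3.62 ± 0.879 CPM (SD, n = 2) in female and 4.12 ± 0.63 CPM (SD, n = 2) in male day 0 cells to 18.2 ± 0.326 and 17.8 ± 6.29 CPM (SD, n = 2) late, by 2.33 ± 0.44 and 2.11 ± 0.43 (adjusted p = 0.000638 and 0.0017, edgeR). Of the 111 entries 45 were called in no contrast with day 0, and 53 were called late in at least 1 line. The same 2 counts were not taken over all 813 tested, so they show nothing particular to the entries. By line 40.5% (female) and 34.2% (male) of the entries were called late, beside 43.5% and 40.7% of all tested. The 154 entries under the limit of 200 counts held 6434 counts together, and of those listed in 1 table alone, 14 in the male and 23 in the female one, none reached 200.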
